A study of Homo sapiens with 6 samples.

Results

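Cells recognise double-stranded RNA, a by-product of virus replication, through a small set of sensors. The helicases encoded by IFIH1 (MDA5) and DHX58 (LGP2) act in the cytosol. MDA5 signals through the mitochondrial adaptor MAVS, whereas TLR3 reads double-stranded RNA in endosomes. EIF2AK2 (the kinase PKR) and the OAS enzymes bind double-stranded RNA directly and shut down translation or activate RNA decay, and PARP9 and PARP14 are ADP-ribosyltransferase family members of the antiviral and interferon response. Most of these genes are themselves induced by interferon through the STAT and IRF transcription factors.

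The 10 genes described here are IFIH1, DHX58, MAVS, TLR3, EIF2AK2, OAS1, OAS2, OAS3, PARP9 and PARP14. They were taken from 19775 named genes of the array. All 25 probe sets that the platform annotation gives to 1 of the 10 genes alone were used. The rule names genes and uses no measured value, although earlier results of these data were known when it was written. The arrays measured electroporated BL2 cells, grown in complete RPMI. BL2 is a human B-cell line derived from Burkitt lymphoma. In 3 cultures the cells received scrambled siRNA, and in 3 they received LEF1 siRNA, for which the series describes pooling of 4 siRNAs. The labels name 3 batches, with both groups present once in each, and the design text calls the replicates biological. Both groups received siRNA, itself a double-stranded RNA, by electroporation, and cells without siRNA were not analysed here.

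Most of these genes share a letter pattern near their start, shown first because it is independent of the arrays. The interferon-stimulated response element, a binding sequence of interferon-activated factors, was searched as 2 copies of GAAA with 2 bases of any kind between them, on both strands of RefSeq promoter windows (GRCh38.p14, 250 bases before to 50 bases after the start). Windows were found for 8 of the 10 genes, all except DHX58 and OAS2. The element was present for 6 of the 8, IFIH1, TLR3, EIF2AK2, OAS3, PARP9 and PARP14, and its letters occur in 3.57% of all 35116 windows. A binding motif of TCF/LEF proteins, searched on both strands as CTTTG followed by 2 bases that are each A or T, was present in 13.8% of all windows and among the 8 genes in IFIH1 alone. These are matches of letters, not measured binding.

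The 250 bases before the IFIH1 start are given in full, because IFIH1 was the member with the largest measured difference. Capitals mark the response elements and the TCF/LEF motif. The first capital stretch holds 2 overlapping response elements on the opposite strand, from -159 to -150 and from -153 to -144. The second is the TCF/LEF motif, on the opposite strand from -44 to -38. The third is the response element from -21 to -12.
IFIH1, chr2:162318685-162318934, minus strand: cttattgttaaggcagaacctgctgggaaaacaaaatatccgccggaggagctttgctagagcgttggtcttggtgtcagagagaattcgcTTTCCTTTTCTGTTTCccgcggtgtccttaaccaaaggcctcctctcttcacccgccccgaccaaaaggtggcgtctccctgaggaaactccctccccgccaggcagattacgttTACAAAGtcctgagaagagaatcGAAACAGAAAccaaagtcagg

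For the other genes with a response element, the 30 bases around it show how close it lies to the start, with the element in capitals. PARP9 has 2 windows, and the match lies in one of them. OAS3 has 2 matches, and the one nearer the start is shown. On the strand printed, the element of TLR3 and of PARP9 appears in its opposite-strand form.
TLR3, chr4:186069142-186069171, plus strand: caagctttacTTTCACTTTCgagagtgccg
EIF2AK2, chr2:37156967-37156996, minus strand: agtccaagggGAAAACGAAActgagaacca
OAS3, chr12:112938452-112938481, plus strand: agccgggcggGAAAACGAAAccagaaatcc
PARP9, chr3:122564322-122564351, minus strand: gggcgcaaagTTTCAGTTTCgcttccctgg
PARP14, chr3:122680800-122680829, plus strand: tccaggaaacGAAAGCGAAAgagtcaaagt

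The start of DTX3L, which encodes the ubiquitin ligase partner of PARP9, lies 38 bases from this PARP9 start on the other strand, so the same element falls in both windows. OAS1, OAS3 and OAS2 are neighbours on chromosome 12.

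Values are log2 expression as deposited, 1 per probe set and array, and errors are SDs over 3 arrays. Array medians ran from 6.89 to 6.96. LEF1, the transcription factor gene targeted by the siRNA, was lower with LEF1 siRNA at its 3 probe sets in every batch. The signal left was 15.2% at the brightest, and 28.0% and 81.5% at the others, and the last missed the threshold in the fit without block (limma adjusted p = 0.284). As a guide to the level of probe sets with little transcript, 31 probe sets of 16 genes restricted to tissues such as liver, muscle and retina read from 5.86 to 7.66. MBP, a further gene of that list that is also transcribed in lymphoid cells, read up to 9.21 and was left out after its values were seen. Of the 25 probe sets, 10 lay above that range, at IFIH1, MAVS, EIF2AK2, OAS1 and OAS2. DHX58, TLR3, OAS3, PARP9 and PARP14 lay within it at every probe set. The top of the range is set by 1 probe set of SFTPC, and the brightest probe sets of DHX58, PARP9 and PARP14 lay above its 90th percentile of 7.38, so they cannot be placed firmly as dim. Differences of dim probe sets can be compressed. The 7 measured B cell and germinal-centre markers read from 10.3 to 13.6. One of them, MME (CD10), was lower by 0.43 with LEF1 siRNA and passed with batch as block (limma adjusted p = 0.000605), and its part in the differences below was not tested. The markers of T and NK, myeloid, plasmacytoid dendritic and epithelial or fibroblast cells stayed at 8.04 or below in their means, and 0 of these 15 were called in either fit.

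Differences were tested with limma in a fit without block and in a fit with batch as block, each over 54613 probe sets with Benjamini-Hochberg adjustment and a threshold of 0.05. Without block 0 of the 25 probe sets passed and 2 had an unadjusted p under 0.05, against 7.84% of all probe sets with such a p. That fit called 0.0183% of all probe sets, 0.011% higher and 0.00732% lower. With batch as block 2 of the 25 passed, 1 each of IFIH1 and PARP14 and both higher with LEF1 siRNA, against 6.09% of all probe sets called, 4.58% higher and 1.51% lower. The number of members called is thus close to that background. Groups did not overlap at the same 2 probe sets, against 12.5% of all probe sets, 7.88% with LEF1 siRNA higher and 4.59% with it lower.

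**Figure D1:**
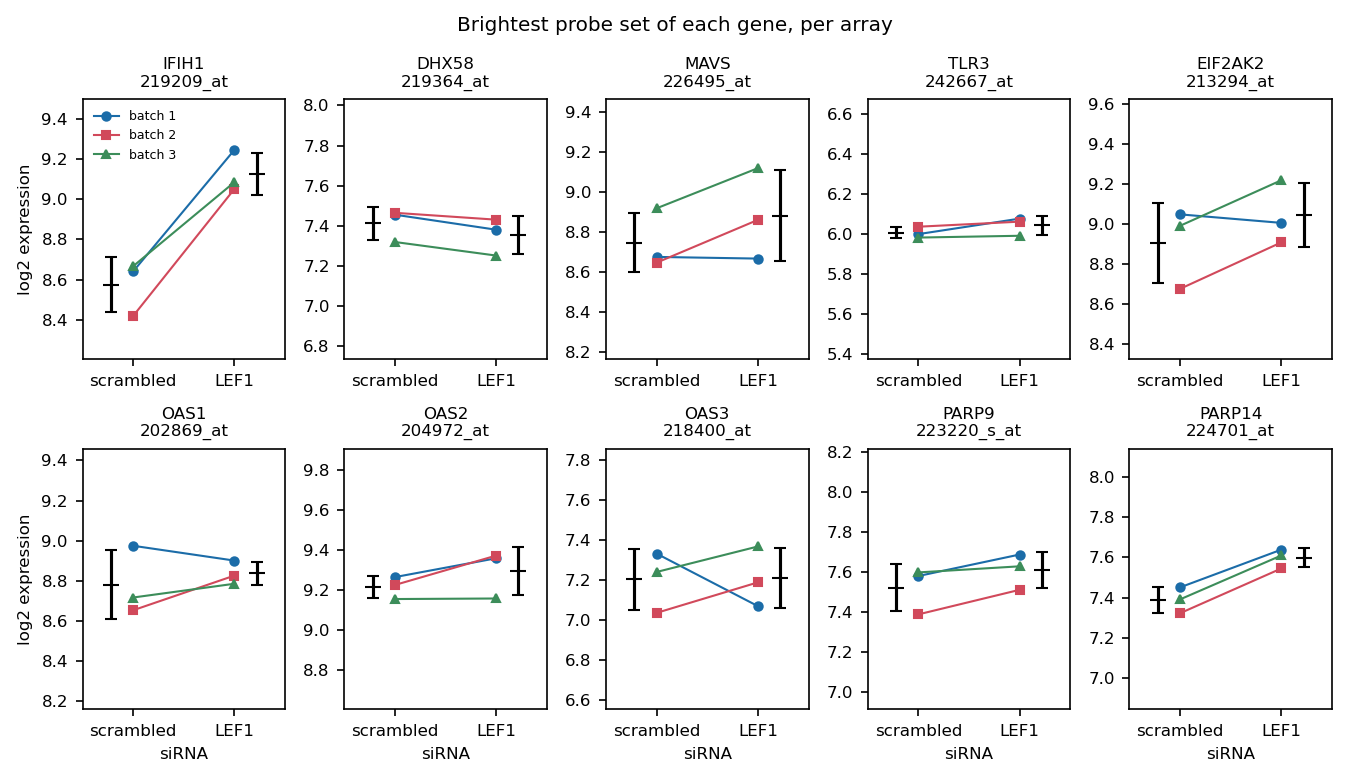
Log2 expression of the brightest probe set of each of the 10 genes on each array, with scrambled siRNA on the left and LEF1 siRNA on the right of each panel; lines join the 2 arrays of a batch, and black bars give the mean and SD of 3 arrays. All panels span the same range of 1.3 on the log2 scale, and only the IFIH1 and PARP14 panels show groups without overlap.

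IFIH1, whose product senses long double-stranded RNA, was the member with the largest rise. Its brightest probe set, 219209_at, read 8.64, 8.42 and 8.67 with scrambled siRNA in batches 1, 2 and 3, and 9.25, 9.05 and 9.09 with LEF1 siRNA. Every LEF1 siRNA array lay above every scrambled siRNA array. The mean went from 8.58 ± 0.14 (SD, n = 3) to 9.13 ± 0.10, a 1.47-fold rise with a 95% interval of 1.34 to 1.61 with batch as block. The batch differences were 0.61, 0.63 and 0.42. The limma adjusted p was 0.000191 with batch as block and 0.115 without. With the block the call held in all 11 settings that were run, at differences from 0.43 to 0.62, and without it in 0 of 15. Among all 54613 probe sets, 95 had a larger mean rise.

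The other probe sets of IFIH1 did not pass. Probe set 1555464_at read 7.49, 6.67 and 6.85 with scrambled siRNA and 7.47, 6.82 and 6.84 with LEF1 siRNA, so that the groups overlapped and batch 1 stood above the others in both. Its difference of 0.04 had a 95% interval of -0.08 to 0.17 with batch as block. Probe set 216020_at, at 6.25 ± 0.07 and 6.36 ± 0.12, differed by 0.11, with batch differences of 0.15, 0.06 and 0.13 (limma adjusted p = 0.357 with batch as block). Both lie within the range of the tissue-restricted probe sets, and the rise of IFIH1 therefore rests on 1 probe set.

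**Figure D2:**
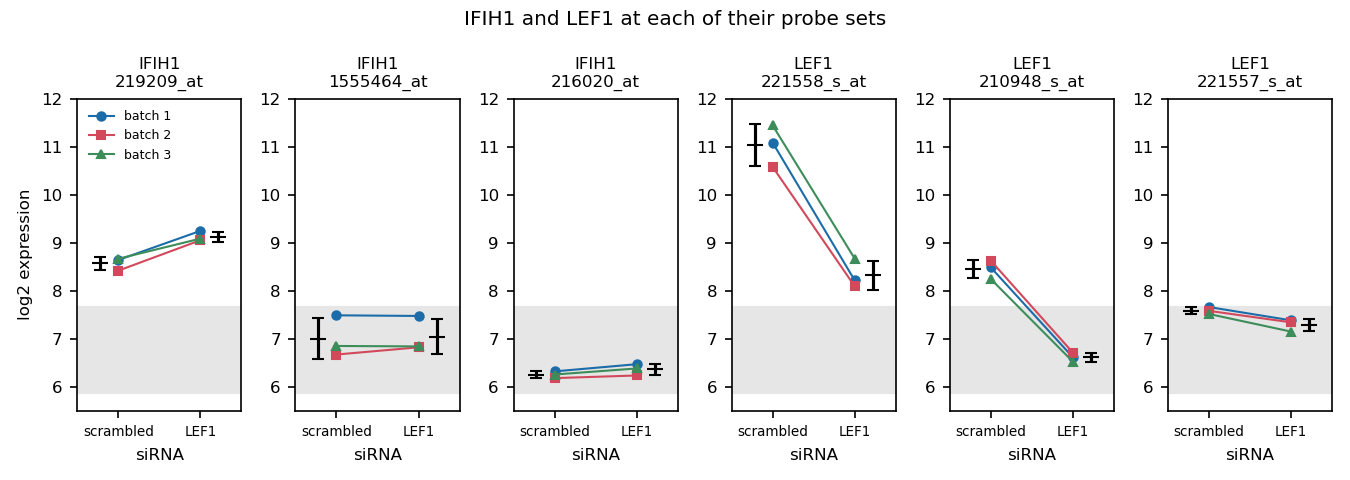
Log2 expression on each array at the 3 probe sets of IFIH1 and the 3 of LEF1, on 1 common axis; lines join the arrays of a batch, black bars give the mean and SD of 3 arrays, and the grey band spans 5.86 to 7.66, the range of tissue-restricted probe sets. IFIH1 219209_at lies above the band and is higher with LEF1 siRNA in each batch, while the other 2 IFIH1 probe sets lie inside it.

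DHX58 encodes LGP2, a related helicase that lacks the signalling domains of MDA5 and modulates it. Its single probe set, 219364_at, read 7.45, 7.46 and 7.32 with scrambled siRNA and 7.38, 7.43 and 7.25 with LEF1 siRNA. The groups overlapped although the LEF1 siRNA array was the lower one in all 3 batches, which 14.4% of all probe sets showed. The difference was -0.06, with a 95% interval of -0.18 to 0.06 with batch as block (limma adjusted p = 0.700). RIGI, the third helicase of this family and not one of the 10 genes, differed by 0.04 at its brightest probe set and by 0.04 and -0.0067 at the others. None of the 3 passed. The brightest carries the suffix of probe sets that can cross-hybridise.

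MAVS, the adaptor that MDA5 signals through, gave the same sign in each batch at all 4 of its probe sets. The brightest, 226495_at, read 8.68, 8.65 and 8.92 with scrambled siRNA and 8.67, 8.86 and 9.12 with LEF1 siRNA. In batch 1 the pair differed by -0.0084, and in batches 2 and 3 LEF1 siRNA was higher by 0.21 and 0.20. At 220305_at the batch differences were -0.09, 0.26 and 0.28. At 231829_at they were -0.15, 0.12 and 0.10, and at 229741_at they were -0.06, 0.07 and 0.15. All 4 probe sets were thus lower in batch 1 and higher in batches 2 and 3, and they read 1 transcript in the same RNA, so they are not independent. Mean differences ran from 0.03 to 0.15, and none passed (limma adjusted p = 0.281 at the brightest and 0.307 at 220305_at with batch as block). Without batch 1, 220305_at passed at 0.27 (limma adjusted p = 0.0200 with batch as block).

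TLR3, the endosomal sensor, read low at all 3 probe sets. All values lay between 5.86 and 6.12, at the lower end of the tissue-restricted range. The brightest, 242667_at, read 6.00, 6.04 and 5.98 with scrambled siRNA and 6.08, 6.06 and 5.99 with LEF1 siRNA. Differences ran from 0.04 to 0.06, the groups overlapped, and none passed (lowest limma adjusted p = 0.723 with batch as block). At such levels a fall or a small rise of TLR3 was not detectable here.

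EIF2AK2 encodes PKR, the kinase that halts translation by phosphorylating eIF2-alpha. Its brightest probe set, 213294_at, read 9.05, 8.68 and 8.99 with scrambled siRNA and 9.01, 8.91 and 9.22 with LEF1 siRNA, with overlapping groups. The batch differences of -0.04, 0.23 and 0.23 had the same signs as those of MAVS, and their mean of 0.14 did not pass (limma adjusted p = 0.299 with batch as block). The second probe set, 204211_x_at, read 8.91, 8.70 and 8.75 against 9.06, 8.84 and 9.04, and LEF1 siRNA was higher in all 3 batches, as at 22.1% of all probe sets and at 9 of the 25. Its difference of 0.19 had a 95% interval of 0.07 to 0.32 with batch as block, yet it missed the threshold after adjustment (limma adjusted p = 0.0733), and its groups overlapped. The dimmest, 242898_at, differed by -0.02 with mixed signs over the batches.

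The OAS genes encode enzymes that make 2'-5'-linked oligoadenylates, the activators of RNase L. OAS1 at 202869_at read 8.97, 8.65 and 8.72 with scrambled siRNA and 8.90, 8.83 and 8.78 with LEF1 siRNA, a difference of 0.06. At 205552_s_at it read 8.49, 8.57 and 8.61 against 8.65, 8.48 and 8.44, a difference of -0.03. The 2 probe sets of OAS1 had opposite signs in every batch, at -0.07, 0.17 and 0.07 for the first and 0.16, -0.09 and -0.17 for the second.

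OAS2 was measured at 3 probe sets, and 204972_at, the brightest, read 9.26, 9.23 and 9.16 with scrambled siRNA and 9.36, 9.37 and 9.16 with LEF1 siRNA. It differed by 0.08, and 206553_at and 228607_at differed by 0.03 and 0.00032. At 228607_at the batch differences were -0.16, 0.18 and -0.02, so a mean near 0 came from batches of opposite sign. OAS3 at 218400_at read 7.33, 7.04 and 7.24 against 7.07, 7.19 and 7.37. Its batch differences of -0.26, 0.15 and 0.13 averaged to 0.0059, and 232666_at differed by -0.01. None of the 7 OAS probe sets passed, the groups overlapped at each, and the 95% intervals with batch as block lay between -0.18 and 0.21.

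PARP14 and PARP9 lie close together on chromosome 3, with PARP15 and DTX3L between them. PARP14 at 224701_at read 7.45, 7.32 and 7.39 with scrambled siRNA and 7.64, 7.55 and 7.61 with LEF1 siRNA. The groups did not overlap, and the batch differences were 0.19, 0.22 and 0.22. The mean went from 7.39 ± 0.06 to 7.60 ± 0.05, a 1.16-fold rise with a 95% interval of 1.06 to 1.26 with batch as block (limma adjusted p = 0.0390, and 0.341 without block). The call is fragile. With the block it held in 4 of 11 settings, and it was lost under the 4 other scalings (limma adjusted p = 0.0708 to 0.281) and without batch 1, 2 or 3 (0.0750, 0.178 and 0.0942). The dimmer probe set, 232610_at, differed by 0.08, with batch differences of -0.06, 0.23 and 0.07.

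PARP9, a catalytically unusual family member that works with DTX3L, read 7.58, 7.39 and 7.60 with scrambled siRNA and 7.69, 7.51 and 7.63 with LEF1 siRNA at 223220_s_at. LEF1 siRNA was higher in all 3 batches, by 0.11, 0.12 and 0.03, but the groups overlapped (limma adjusted p = 0.514 with batch as block). Probe set 227807_at differed by 0.09 (0.560). DTX3L, which shares the start region shown above, differed by 0.20, with batch differences of 0.25, 0.27 and 0.07, and did not pass (limma adjusted p = 0.0761 with batch as block). Without batch 3 it passed at 0.26 (limma adjusted p = 0.0176).

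**Figure D3:**
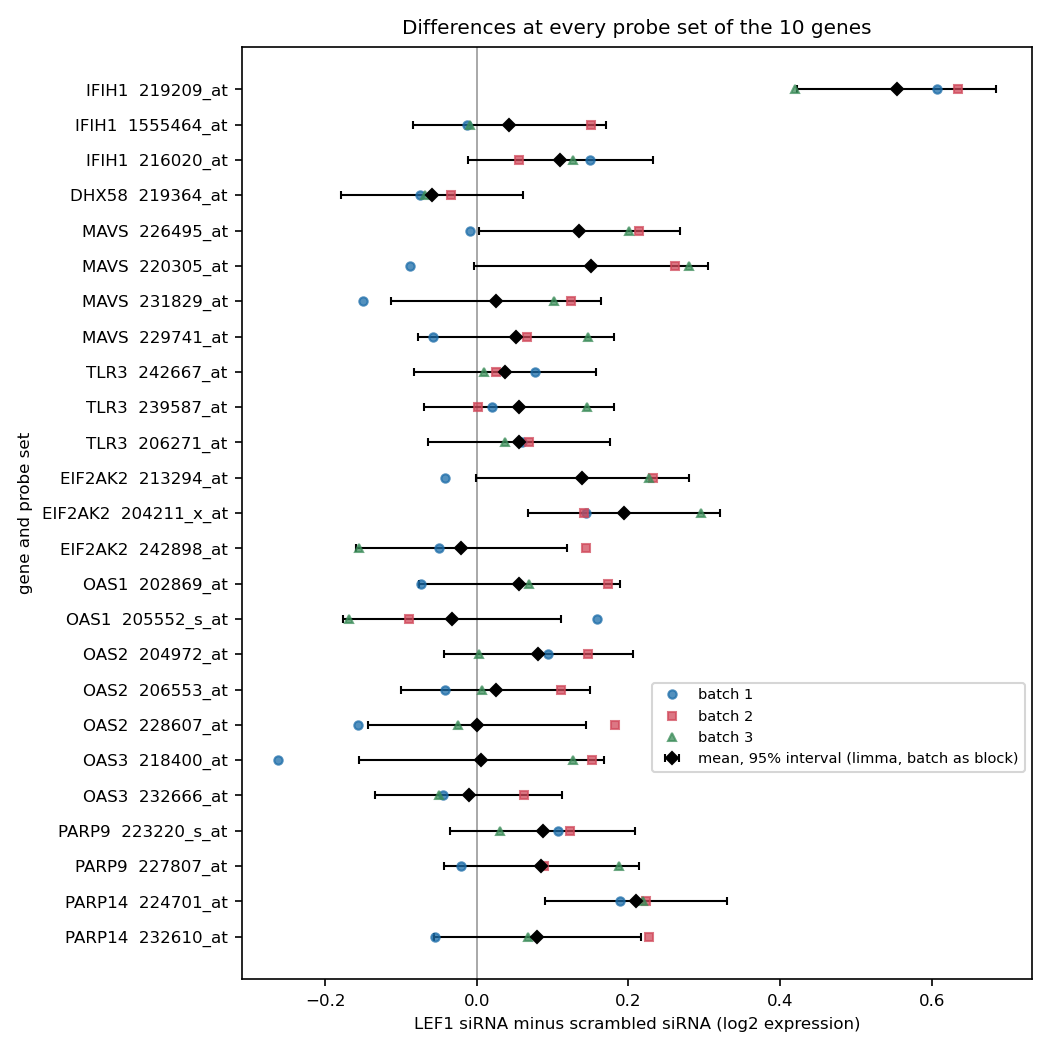
Log2 difference, LEF1 siRNA minus scrambled siRNA, at each of the 25 probe sets; coloured symbols give the 3 batches and black diamonds the mean with its limma 95% interval (batch as block). IFIH1 219209_at lies apart at 0.55, PARP14 224701_at has its 3 batches together near 0.2, and the 4 MAVS probe sets have batch 1 below 0 and the other batches above.

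Across the 25 probe sets, 21 mean differences lay above 0 and 4 below, while 55.7% of all probe sets lay above 0. The median was 0.056, against 0.011 over all probe sets. The sign depended on the batch and on the scaling. LEF1 siRNA was higher at 10 of 25 in batch 1, at 23 in batch 2 and at 19 in batch 3, against 50.5%, 60.1% and 51.6% of all probe sets. The medians in the 3 batches were -0.021, 0.14 and 0.069, against 0.0013, 0.033 and 0.0048 over all. When the arrays were scaled to the poly-A spike-ins, RNAs added during labelling, the median of the 25 became -0.064 and that of all probe sets moved to -0.11. The 23 probe sets that were not called differed by -0.06 to 0.19, and their 95% intervals with batch as block ran from -0.18 to 0.32. A difference of 1.5-fold, or 0.58 on the log2 scale, lay outside the interval of each of these 23. This bounds the measured signal, and for TLR3 and other dim probe sets it does not bound the change of the transcript. One sign of RNA integrity moved with the groups. The 3' minus 5' difference of the ACTB control probe sets was 0.07, -0.03 and 0.10 with scrambled siRNA and 0.18, 0.30 and 0.22 with LEF1 siRNA, while that of GAPDH was 0.04, 0.06 and 0.10 in batches 1, 2 and 3 of both groups. Its part in the differences above was not tested.

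Around these genes, 4 lists of the same pathway held 81 genes, of which 77 were measured. Without block 0 of the 77 passed. With batch as block 8 were higher and 2 lower at the brightest probe set, against 6.73% and 1.7% of 19775 genes, or 8.43% in either direction. The median difference of the 77 was 0.051, against 0.019 for the brightest probe set of all genes.

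Of 23 genes that relay or shape double-stranded RNA sensing, 3 rose and 1 fell with batch as block. IKBKE, a kinase that activates IRF3 and IRF7, went from 8.75 ± 0.11 to 9.16 ± 0.04, a rise of 0.41. Its other probe set was about as bright and differed by 0.23 without passing (limma adjusted p = 0.102 with batch as block). RNF135, the ubiquitin ligase also called Riplet, which activates RIG-I, rose by 0.34 there and by 0.43 at its other probe set. ZNFX1, a helicase that binds double-stranded RNA, rose by 0.23. DHX9, an RNA helicase that unwinds such RNA, fell by 0.34 and at a second of its 3 probe sets by 0.31. IKBKE and RNF135 passed in all 11 settings with the block. DHX9 did not pass without batch 2 (limma adjusted p = 0.110), and ZNFX1 lost its call under each of the 4 other scalings (limma adjusted p = 0.0725 to 0.225), with trend and robust eBayes (0.0564) and without batch 1 (0.182) or batch 2 (0.166). Under poly-A spike-in scaling the list held 2 higher and 6 lower calls, the added ones being lower IRF3, TICAM1, PRKRA, EIF2S1 and PPP1CA. That scaling called 8797 of all 54613 probe sets, and only 11.0% of these calls were higher. TANK was called higher without batch 3.

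Of 11 genes of the interferons, their receptors and downstream factors, 1 rose. JAK1, the kinase bound to the interferon receptors, rose by 0.28 at its brightest probe set, but its 4 others differed by -0.09 to -0.02 and did not pass. Its call was lost under poly-A spike-in scaling (limma adjusted p = 0.0881) and without batch 3 (0.0601). USP18, which encodes a deconjugase of ISG15 and restrains interferon receptor signalling, differed by -0.20 and did not pass in the deposited scale (limma adjusted p = 0.0880). It was called lower after quantile normalization (0.0311), after cyclic loess (0.0405), without batch 3 (0.0149) and under poly-A spike-in scaling (0.00370). SOCS1 was called lower under poly-A spike-in scaling alone. IFNB1, the gene of interferon beta, read 6.58 ± 0.06 and 6.55 ± 0.07, within the tissue-restricted range. The means of USP18 and SOCS1 over the 6 arrays, 7.48 and 7.51, also lay within that range, though above its 90th percentile of 7.38.

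Of 34 interferon-induced effectors, 4 rose and 1 fell. TRIM22, an antiviral TRIM protein gene, rose by 0.45, from 10.25 ± 0.06 to 10.70 ± 0.14, and passed in all 11 settings with the block. ZC3HAV1, which encodes the zinc-finger antiviral protein ZAP, rose by 0.29 and at a second of its 3 probe sets by 0.21, and its first call was lost under poly-A spike-in scaling (limma adjusted p = 0.0624). BST2 (tetherin) and IFITM1, both membrane proteins that restrict viruses, each rose by 0.22. Each lost its call under the 4 other scalings (limma adjusted p = 0.0715 to 0.269), BST2 also with trend and robust eBayes (0.0578) and without batch 1 (0.179) or batch 2 (0.119), and IFITM1 with trend and robust eBayes (0.0819) and without batch 2 (0.328). Calls were gained by IFI27, lower, under poly-A spike-in scaling, and, higher, by EPSTI1 and PARP10 among the brightest probe sets per gene, by PARP10 and SAMD9 without batch 1 and by DTX3L without batch 3. LGALS3BP fell by 0.33 and passed in all 11 settings with the block. MX1, ISG15, IFIT1 and RSAD2, 4 widely used interferon-induced genes singled out here after their values were seen, differed by -0.03, 0.11, -0.04 and -0.06. None of the 4 passed, and their groups overlapped. IFIT1 and RSAD2, with means of 6.33 and 6.38 over the 6 arrays, lay within the tissue-restricted range. Others of the list did too, among them IFI27 at 6.42 and EPSTI1 at 7.27. Of all 34 differences in the list, 23 lay above 0, against 55.7% of all probe sets, a share not limited to the brightest of each gene. The median of the 34 was 0.064, against 0.019 for the brightest probe set of all genes.

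Of 9 other nucleic acid sensors none passed in either fit. IFI16 and TLR9, the brightest of them, each differed by 0.05. The others were CGAS, TLR8, AIM2, ZBP1, NLRP1, STING1 and TLR7. Their means over the 6 arrays, from 6.23 to 7.61, lay within the tissue-restricted range, where differences can be compressed.

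**Figure D4:**
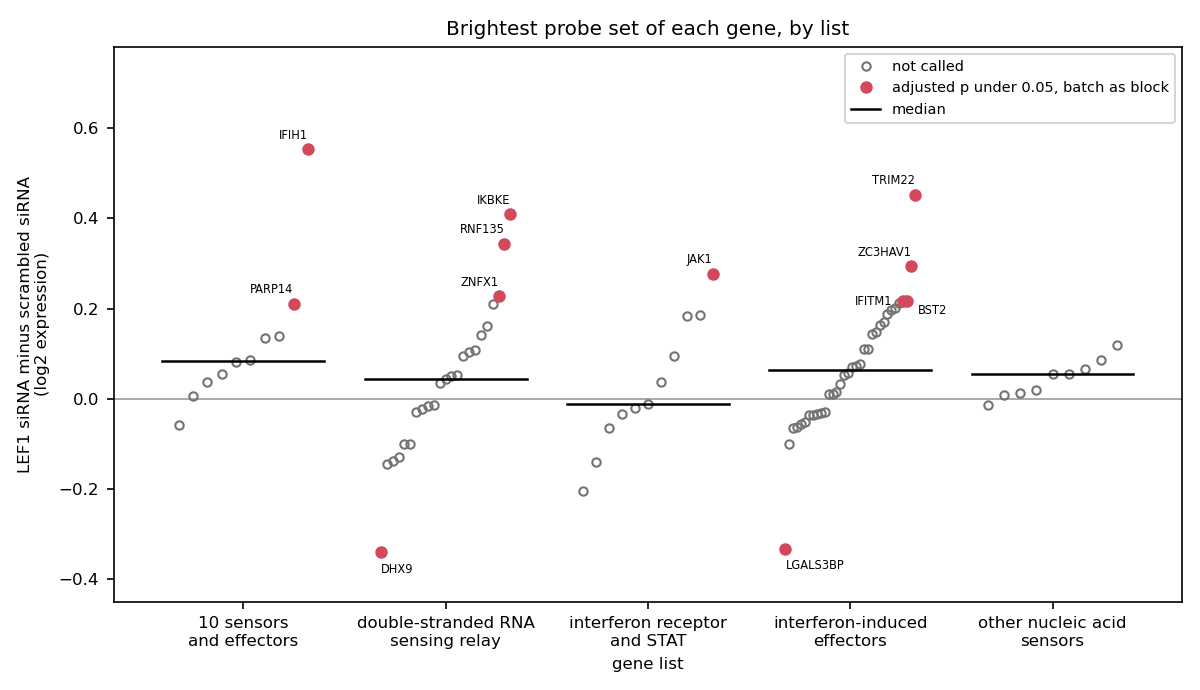
Log2 difference, LEF1 siRNA minus scrambled siRNA, at the brightest probe set of each gene in the 10 sensors and effectors and in 4 related lists; filled points passed the limma threshold with batch as block, open points did not, and black lines are list medians. The 2 filled points of the 10 genes are IFIH1 and PARP14, and TRIM22 and IKBKE are the highest filled points of the other lists.

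The genes whose values were most like IFIH1 219209_at over the 6 arrays were sought among 23059 probe sets above the median level. They were VCPKMT, with a Pearson r of 0.999, LACTB, with 0.999, and LARP4, with 0.998. VCPKMT rose by 0.51, LACTB by 0.31 and LARP4 by 0.29 with batch as block. They were picked for likeness to a probe set that separates the groups. Their rises therefore follow from the selection and are not a separate result. Of the 23059 probe sets searched, 261 exceeded 0.95. With 6 arrays in 2 groups these correlations describe these arrays only.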

How the data were processed

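The deposited values are log2 expression, 1 per probe set and array of the HG-U133 Plus 2.0 type. Values from 5.45 to 15.0 show the scale, since no label states it, and the authors' background correction, normalization and summarisation are not given in the sources used here. Per the labels' protocols, labelled cRNA was made from total RNA by a kit that primes at the 3' end, so the arrays read mainly 3' ends. Precision is limited by how few arrays there are.

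The 62 control probe sets were left out, and 54613 were tested with limma 3.58.1 in R 4.3.3 (lmFit, eBayes, two-sided p, Benjamini-Hochberg over all of them). Probe sets were named through the platform annotation, where 41091 gave 1 gene, 1801 several and 11721 none here. Lists use the brightest probe set of each gene. The 10 genes and all lists were chosen with earlier results of these data known. Named genes were the 10 at every probe set, list genes past the threshold, otherwise the 2 brightest of a list, and the 3 genes most like IFIH1. Outside this rule, RIGI, DTX3L, IFNB1, MX1, ISG15, IFIT1, RSAD2, MME and the list genes called under alternatives alone were named after their values were seen.

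The labelled batch pairs the arrays. Within batches 1, 2 and 3 the paired arrays' departures from their group averages had a correlation of 0.477, 0.493 and 0.621 over probe sets. The fit with batch as block has 2 residual and 12.0 prior degrees of freedom, against 4 and 4.07 without block, so it leans on the spread shared by all probe sets. On simulated data over 54613 probe sets the fit without block recovered 54% of changes of 0.5 and 97% of changes of 1, and the fit with block 100% of each with 27 false calls. The simulated spread came from the fit with block. Figures were drawn with matplotlib 3.10.9.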

Additional observations from a re-analysis of the deposited data

How the results depend on the processing

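Over all probe sets, 10 were called without block and 3328 with the labelled batch as replicate block. Without block the count was 23 after quantile normalization and after cyclic loess, 5 among the brightest probe sets per gene, 6 with trend and robust eBayes and 39 with array weights, and it ran from 0 to 8 when 1 array was left out. With the block it was 3315 after quantile normalization, 2785 with equal array medians, 3240 after cyclic loess, 8797 under poly-A spike-in scaling, 3465 without dim probe sets, 1949 among the brightest, 2938 with trend and robust eBayes, and 3880, 1407 and 3626 without batch 1, 2 and 3. Of the calls with the block, 75.2% were higher in the deposited scale. The share was 66.2% when medians were made equal, 60.1% for cyclic loess, 56.2% for quantile normalization and 11.0% for poly-A spike-in scaling. Of the 25 probe sets, 0 were called in any setting without block, 2 with the replicate block (also without dim probe sets, with the brightest alone, with trend and robust eBayes and without batch 1), and 1 with it under each of the 4 other scalings and without batch 2 or 3. Their median difference was -0.064 under poly-A spike-in scaling and 0.025 to 0.11 without 1 array. The spike-in scaling moves every difference by the same amount, and its downward direction came from the measured spike-in signal.

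Signs turned only at differences that passed in neither setting. Equal medians and poly-A spike-in scaling subtract 1 value from each array, so each shifts all differences by the same amount. For the other settings the cause was not tested. MAVS 231829_at was -0.019 after quantile normalization, -0.013 after cyclic loess and without batch 3, -0.021 with array weights and -0.024 without batch 2. OAS2 206553_at was -0.026 after quantile normalization and -0.018 after cyclic loess and without batch 2. OAS2 228607_at was -0.023 with equal medians, -0.042 after quantile normalization, -0.036 after cyclic loess, -0.033 with array weights and -0.091 without batch 2. OAS3 218400_at was -0.017, -0.028, -0.019 and -0.061 under those 4 settings in that order, and -0.067 and -0.055 without batch 2 and 3. With arrays scaled to the poly-A spike-ins, values were -0.077 and -0.0095 for IFIH1 1555464_at and 216020_at, -0.094 and -0.068 for MAVS 231829_at and 229741_at, -0.083, -0.064 and -0.064 for TLR3, -0.064 for OAS1 202869_at, -0.039, -0.095 and -0.12 for OAS2, -0.11 for OAS3 218400_at, -0.033 and -0.035 for PARP9 and -0.040 for PARP14 232610_at. OAS1 205552_s_at was 0.023 with array weights and 0.034 without batch 3, and OAS1 202869_at was -0.0026 without batch 2. OAS3 232666_at was 0.0063 and 0.0086 without batch 1 and 3, EIF2AK2 242898_at 0.047 without batch 3, and IFIH1 1555464_at -0.011 without batch 2.

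Without 1 array, the ranges that crossed 0 were -0.17 to 0.29 for IFIH1 1555464_at, -0.0085 to 0.086 for MAVS 231829_at, -0.0067 to 0.12 for TLR3 239587_at, -0.070 to 0.065 for EIF2AK2 242898_at, -0.0083 to 0.15 for OAS1 202869_at, -0.097 to 0.010 for OAS1 205552_s_at, -0.043 to 0.087 for OAS2 206553_at, -0.054 to 0.078 for OAS2 228607_at, -0.077 to 0.075 for OAS3 218400_at, -0.062 to 0.046 for OAS3 232666_at and -0.0051 to 0.15 for PARP14 232610_at. In all, 478 single values kept their sign and side of the threshold, 16 newly passed it and 87 turned sign. The linear-scale alternative was not run, since the values are log2, and alternatives for the pathway lists were chosen after seeing the data. With 3 arrays per group, an exact permutation test of a single value that ignores batch cannot go below 0.1. Swapping only within batches allows fewer arrangements, so its lowest possible p is higher. Signal within the tissue-restricted range limits what TLR3 and OAS3 can show. Of the relay, receptor and effector lists, 4, 1 and 5 genes were called with the block. With poly-A spike-ins as the scale these counts were 8, 2 and 3, where 8797 of all 54613 probe sets were called.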
